A study of Elaeis guineensis with 18 samples.

Results

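Cold and waterlogging were set directly against each other in leaves of oil palm (Elaeis guineensis), using the 6 libraries of these treatments among the 18 RNA sequencing libraries of the study. The seedlings were wild type Deli Dura palms in soil-filled bags. Cold-treated seedlings were kept at 10 °C with 200 mL of water a day, and waterlogged seedlings were kept at 28 °C with the water standing 1 inch above the soil. Control seedlings, at 28 °C with 200 mL of water a day, gave 3 libraries that are used here as a reference level alone. Each treatment has 3 libraries described as biological replicates, and each library was made from the third leaf of several seedlings, so a value is an average over palms and p-values measure the spread between such pools. The treatments differ in temperature and in watering together, so what belongs to either factor cannot be told apart in the direct comparison.

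In background, cold slows enzymes and stiffens membranes while light is still absorbed, and plants respond with cold-regulated transcripts and chaperones. Waterlogging cuts the oxygen supply of roots, and leaves receive its effects through water, nutrient and hormone signals such as ethylene. Chlorophyll-binding antenna proteins of the light-harvesting complexes collect light for photosystem I and photosystem II in the thylakoid membrane, and their nuclear transcripts are among the most abundant of a green leaf. The abundant light-harvesting transcripts described below were present in all 9 libraries of this leaf tissue.

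The cold libraries held 18634728 to 20182669 counted reads, the waterlogging libraries 14839345 to 19376063 and the control libraries 17434882 to 18103289. Rank correlations over genes were 0.988 to 0.989 among the cold libraries, 0.969 to 0.985 among the waterlogging libraries and 0.938 to 0.952 between the treatments, and genes are not independent replicates. Waterlogging replicates 1 and 3 were the least alike of the replicate pairs in these 3 groups, and the median coefficient of variation over genes of at least 10 CPM was 8.25% in cold and 13.01% in waterlogging. CPM is the read count of a gene relative to the size of its library, in the usual unit of counts per 1000000 reads, with the library size scaled by the TMM method of edgeR, which sets the libraries to a common level over most genes. The TMM factors were 1.35 to 1.36 in cold and 0.783 to 0.880 in waterlogging, while the 100 most abundant genes took 14.6 to 16.1% of the reads in cold and 29.0 to 32.4% in waterlogging.

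Of 23830 genes tested, 5902 were differentially expressed genes (DEGs) between cold and waterlogging, or 24.8%, with an adjusted p below 0.05 and a change of at least 2-fold in the edgeR quasi-likelihood test. Of these, 2673 (11.2% of the tested genes) were higher in cold and 3229 (13.6%) were lower in cold. The treatments did not overlap in any library for 2606 of the DEGs higher in cold and 3044 of those lower in cold, where 29.7% and 28.6% of all tested genes show such a separation in the respective direction. The median log2 fold change, given throughout as cold minus waterlogging, was 1.61 among the former and -1.64 among the latter. Against control, 25.0% of the tested genes were DEGs in cold and 19.6% in waterlogging.

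The direction of the DEGs went with the level of the genes. Among 83 tested genes with a mean over 1000 CPM, 74.7% were DEGs lower in cold and 1.20% were higher. Between 100 and 1000 CPM the shares were 32.6% lower and 2.89% higher over 1555 genes. Between 10 and 100 CPM they were 13.3% lower and 5.72% higher over 11345 genes. Between 1 and 10 CPM they were 11.4% lower and 18.3% higher over 8054 genes, and below 1 CPM 8.49% lower and 18.2% higher over 2793 genes. These shares are on the TMM scale and were not computed under another scaling.

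**Figure D1:**
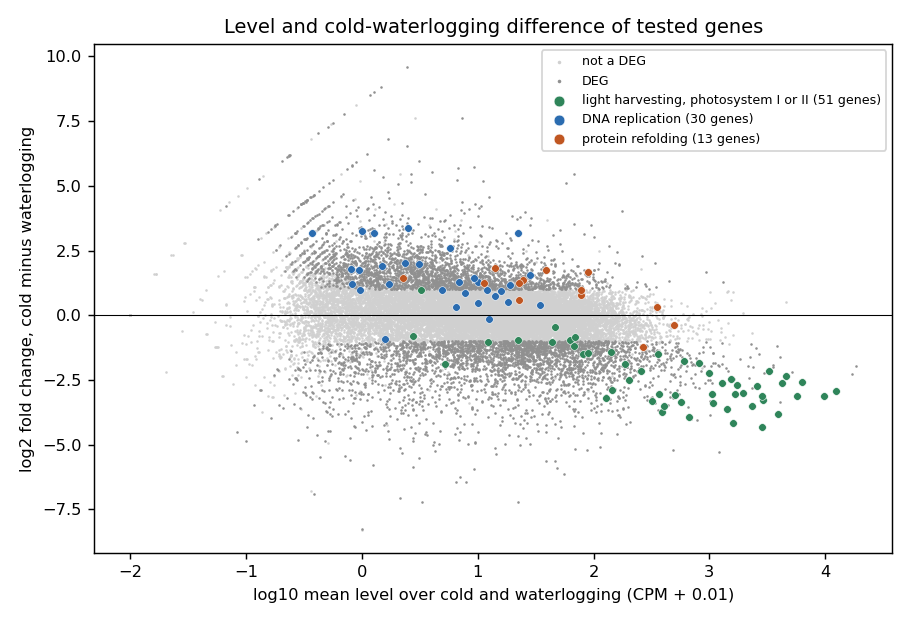
Each point is a tested gene, with the log10 of its mean level over the cold and waterlogging libraries (CPM + 0.01) on the x axis and its log2 fold change, cold minus waterlogging, on the y axis. Light grey points are genes that are not DEGs, dark grey points are DEGs, and colours mark the listed genes. The 51 light-harvesting and photosystem genes lie below the zero line except LOC105058920, with 45 DEGs lower in cold. The most abundant of them lie far to the right. The 30 DNA replication genes lie mostly above the zero line.

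The numbers in each direction rested on how the libraries were scaled. When library totals replaced the TMM scaling, 8055 genes were DEGs higher in cold and 1407 lower, and the median log2 fold change of all tested genes was 0.72 instead of 0.02. With totals that leave out the light-harvesting and photosystem genes, an alternative added after seeing the data, the numbers were 6486 and 1649 and the median was 0.57. Fold changes below are relative to the TMM scale. No DEG of that scale turned to the other direction as a DEG under any alternative tried, but many lost their call. The share of these DEGs that kept it was 69.1% with library totals and 99.9% with DESeq2 size factors. With totals that leave out the light-harvesting and photosystem genes the share was 73.2%.

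**Figure D2:**
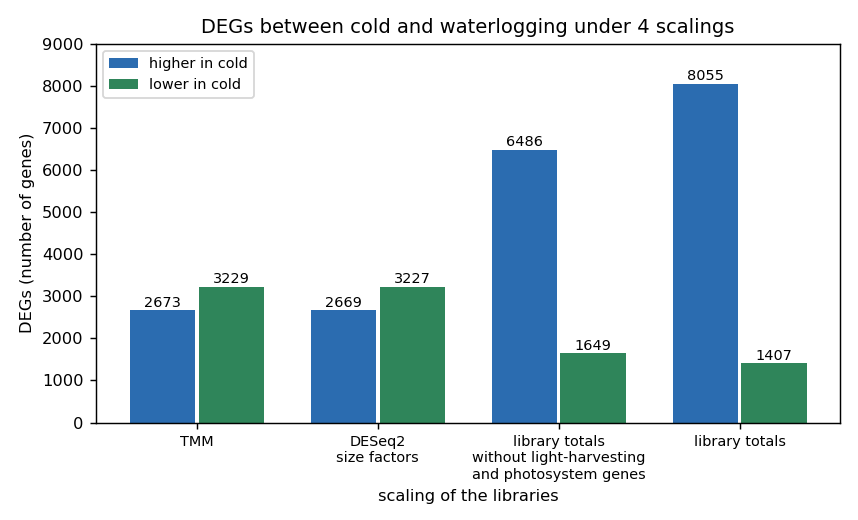
Bars give the number of DEGs higher in cold (blue) and lower in cold (green) when the libraries were scaled by TMM, by DESeq2 size factors, by totals without the light-harvesting and photosystem genes, or by library totals. The number lower in cold is 3229 with TMM and 1407 with library totals.

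Light-harvesting transcripts were lower in cold than in waterlogging throughout. All 21 tested genes that the study's gene ontology table lists for light harvesting in photosynthesis were DEGs lower in cold, with a median log2 fold change of -3.12 beside 0.02 over all tested genes, and with library totals 18 of them were. The study picked the lists of that table from these libraries, here and below, so their counts are not independent evidence of a direction. The summed level of the 21 genes was 13607, 13766 and 17146 CPM in the cold libraries and 106407, 136295 and 103133 CPM in the waterlogging libraries. The control sums of 26775, 50920 and 54121 CPM lay between the treatments and did not overlap with either. As a share of all counted reads, which is the scale of library totals, these genes took 1.85, 1.86 and 2.32% in cold. The shares were 8.33, 11.3 and 9.07% in waterlogging and 3.05, 5.53 and 5.90% in control. In bulk leaf RNA, fewer green cells and less transcript per cell cannot be told apart.

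The most abundant member was LOC105032174, with 2795, 2527 and 3182 CPM in cold, 20699, 24737 and 19866 CPM in waterlogging and 9654, 15759 and 17767 CPM in control. Its difference from waterlogging was log2 fold change -2.94, SE 0.27, adjusted p = 4.71e-07. Against control it was lower in cold (log2 fold change -2.34) and not a DEG in waterlogging (log2 fold change 0.60), and the control libraries spread widely, with control replicate 1 the lowest.

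The second most abundant member, LOC105047188, had 1772, 1899 and 2349.6 CPM in cold, 16828, 20536 and 14852 CPM in waterlogging and 2648, 5981 and 6667 CPM in control (log2 fold change -3.12, SE 0.36, adjusted p = 4.62e-06). LOC105041013 had 468, 458 and 638 CPM in cold, 4143, 10361 and 7467 CPM in waterlogging and 798, 2817 and 2715 CPM in control (log2 fold change -3.81, SE 0.53, adjusted p = 2.60e-05). In this gene waterlogging replicate 1 was the lowest of its group and was still several-fold above every cold library.

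The steepest member was LOC105032321, with 246, 249 and 326 CPM in cold, 5225, 6239 and 4896 CPM in waterlogging and 962, 2089 and 2012 CPM in control (log2 fold change -4.32, SE 0.32, adjusted p = 7.91e-08). LOC105037272 followed, with 76.4, 79.7 and 86.2 CPM in cold, 1531, 1484 and 741 CPM in waterlogging and 279.6, 420.3 and 468 CPM in control (log2 fold change -3.95, SE 0.33, adjusted p = 2.35e-07). In both genes the cold libraries lay below every control library and the waterlogging libraries above every control library.

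In some members cold did not lie below control. LOC105032994 had 23.8, 23.4 and 27.96 CPM in cold, 337, 213 and 142 CPM in waterlogging and 8.5, 10.1 and 11.3 CPM in control, so it was higher than control in both treatments (log2 fold change 1.33 for cold and log2 fold change 4.53 for waterlogging) and still lower in cold than in waterlogging (log2 fold change -3.20, SE 0.299, adjusted p = 6.06e-07). LOC105053065, LOC105058244 and LOC105050459 had the smallest differences of the group, with log2 fold changes of -1.43, -1.499 and -1.04, and these are the members whose call was lost with library totals. LOC105050459, for example, had 29.1, 28.4 and 28.8 CPM in cold, 68.9, 57.8 and 50.9 CPM in waterlogging and 20.4, 19.95 and 20.9 CPM in control, so cold lay above control here and waterlogging above both, and without waterlogging replicate 1 its log2 fold change was -0.92, short of 2-fold. Over the 21 genes the waterlogging mean was 2.06 to 19.9 times the cold mean, with a median of 8.66, the cold mean was below the control mean in 18 genes and the waterlogging mean was above it in 21. Waterlogging and control comparisons share the control libraries with the cold comparison, so these values are set side by side only.

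**Figure D3:**
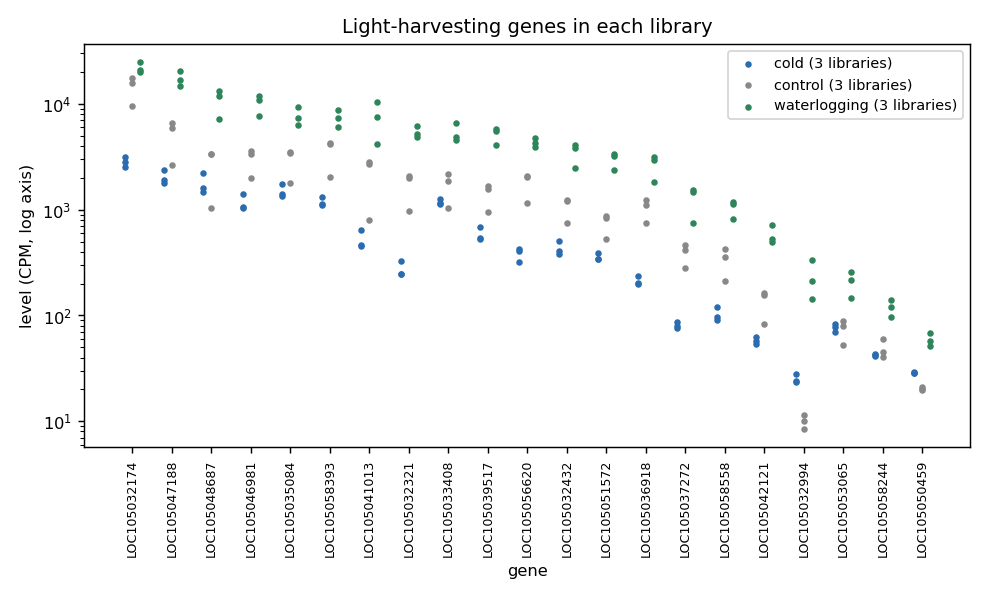
Points give the level in each library (CPM, log axis) of the 21 light-harvesting genes, ordered by their waterlogging mean, in cold (blue), control (grey) and waterlogging (green). In every gene the 3 waterlogging libraries lie above the 3 cold libraries, from 2.06-fold in LOC105050459 to 19.9-fold in LOC105032321 by the means.

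Genes of the reaction centres and of the water-splitting complex were lower in cold together with those of the antenna. Of 28 tested photosystem I genes all 28 were DEGs lower in cold (median log2 fold change -2.97), as were 37 of 43 photosystem II genes (median -2.90) and none was higher, with 25 and 31 lower by library totals and 1 photosystem II gene higher. These lists share members with the light-harvesting list, and together they hold 51 genes, of which 45 were lower in cold. The 51 genes took 2.50 to 3.08% of the counted reads in cold, 11.3 to 14.4% in waterlogging and 4.11 to 7.53% in control.

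All 5 genes listed for the photosystem I reaction center were lower in cold. LOC105055013, the most abundant of them, had 624, 609 and 784 CPM in cold, 4489, 5297 and 3789 CPM in waterlogging and 925, 1497 and 1701 CPM in control (log2 fold change -2.75, SE 0.28, adjusted p = 1.16e-06), and the groups did not overlap. Of 12 tested genes of the photosystem II oxygen evolving complex, which takes electrons from water, 9 were lower in cold, and with library totals 5 were. LOC105047072 had 1758, 1869 and 1939 CPM in cold, 8908, 9454 and 7099 CPM in waterlogging and 2518, 3709.9 and 4729.9 CPM in control (log2 fold change -2.19). LOC105052408 had 182, 169 and 156 CPM in cold, 3311, 3510.2 and 2322 CPM in waterlogging and 749, 1031 and 1325 CPM in control (log2 fold change -4.17), so its cold libraries lay below every control library. Of the 6 photosystem II genes that were not DEGs, LOC105058920 was the one with the opposite sign, with 4.595, 4.16 and 4.21 CPM in cold, 2.66, 1.43 and 2.45 CPM in waterlogging and 1.91, 1.85 and 2.18 CPM in control (log2 fold change 0.99, SE 0.2204, adjusted p = 0.00145). It passed 2-fold without cold replicate 2 or 3 or waterlogging replicate 1 or 3, at log2 fold changes of 1.01 to 1.16.

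Of 6 tested carbon fixation genes, 2 were DEGs lower in cold and none was higher, while with library totals 1 was lower and 1 higher. LOC105041203, listed there, was among the most abundant transcripts of the leaf, with 6565, 7303 and 8950.0 CPM in cold, 34358, 30866 and 23154 CPM in waterlogging and 6213, 7649 and 9713 CPM in control. Cold was within the range of control for this gene and waterlogging was above both (log2 fold change -1.95, SE 0.27, adjusted p = 2.16e-05).

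All 3 genes listed for glycine catabolism, the step of photorespiration that breaks glycine down in mitochondria, were lower in cold. LOC105047677 had 947, 1038 and 1183 CPM in cold, 6949.8, 4549 and 3257 CPM in waterlogging and 1731, 1949 and 2387 CPM in control (log2 fold change -2.22, SE 0.26, adjusted p = 5.25e-06). The other two, LOC105060641 and LOC105035926, had log2 fold changes of -2.27 and -2.004. Waterlogging was above control in every library of these 3 genes, and cold lay below control in LOC105047677 and LOC105060641.

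Of 7 tested cysteine biosynthesis genes, the step that fixes reduced sulfur into an amino acid, 5 were lower in cold and none was higher, and with library totals 3 were lower and 2 higher. LOC105050935 had 150.3, 127 and 117 CPM in cold, 2576, 1791 and 1295 CPM in waterlogging and 132, 167 and 141 CPM in control (log2 fold change -3.84, SE 0.26, adjusted p = 3.74e-08). Cold and control overlapped in this gene, whereas the lowest waterlogging library was several-fold above both. Of 7 carotenoid biosynthesis genes 2 were lower in cold, among them LOC105054212 with 6.78, 10.2 and 11.8 CPM in cold, 152, 136 and 87.3 CPM in waterlogging and 24.8, 51.2 and 45.1 CPM in control (log2 fold change -3.71). Of 3 genes listed for the plastoquinone-reducing NAD(P)H dehydrogenase complex, 2 were lower in cold, and 1 with library totals.

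Genes of DNA replication, which copy the genome before cell division, were higher in cold. Of 30 tested members 17 were DEGs higher in cold and none was lower, with a median log2 fold change of 1.24, and with library totals 28 were higher. This list comes from the study's cold DEGs alone. Against control, 29 of its members were DEGs higher in cold and 1 was lower, so the direction was largely set by that choice. Their summed level was 336, 348 and 354 CPM in cold, 186, 167 and 145 CPM in waterlogging and lower again in control, where it was 106.4 to 123.3 CPM. As a share of reads this was 0.0456 to 0.0478% in cold, 0.0128 to 0.0146% in waterlogging and 0.0116 to 0.0134% in control. Waterlogging and control thus overlapped on that scale. The group is a small part of the leaf transcriptome.

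LOC105054821 was the clearest of the more abundant members, with 42.0, 34.8 and 42.4 CPM in cold, 2.997, 4.04 and 6.2 CPM in waterlogging and 6.49, 4.78 and 4.15 CPM in control (log2 fold change 3.18, SE 0.28, adjusted p = 3.09e-07). LOC105051804 had 40.4, 42.4 and 43.2 CPM in cold, 16.7, 14.4 and 11.9 CPM in waterlogging and 11.6, 11.4 and 8.2 CPM in control (log2 fold change 1.55, SE 0.18, adjusted p = 4.80e-06). In both genes waterlogging lay close to control and cold lay above both. LOC105051821, the most abundant member, had 37.5, 40.7 and 38.9 CPM in cold, 35.0, 28.3 and 25.9 CPM in waterlogging and 18.1, 17.3 and 16.3 CPM in control, a difference of log2 fold change 0.39, SE 0.11, adjusted p = 0.00835 that did not reach 2-fold. LOC105048410 had 11.5, 10.1 and 7.89 CPM in cold, 1.87, 1.68 and 1.23 CPM in waterlogging and 4.08, 3.81 and 2.08 CPM in control (log2 fold change 2.62), so waterlogging lay below every control library while cold lay above every one. LOC105051384 was not a DEG, with 11.999, 10.8 and 13.2 CPM in cold, 15.6, 14.8 and 9.27 CPM in waterlogging and 4.23, 4.47 and 3.65 CPM in control (log2 fold change -0.14, SE 0.18, adjusted p = 0.52). LOC105034434 had the opposite sign without reaching 2-fold, with 1.13, 1.03 and 1.09 CPM in cold, 2.46, 1.37 and 2.3 CPM in waterlogging and 3.27, 2.42 and 2.43 CPM in control (log2 fold change -0.91, SE 0.24, adjusted p = 0.00517), and its treatments did not overlap. Without waterlogging replicate 2 it was a DEG lower in cold, at a log2 fold change of -1.13.

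Protein refolding genes, which encode chaperones, differed in many members and, on the TMM scale, not in their sum. Of 13 tested members 7 were DEGs higher in cold and 1 was lower, with a median log2 fold change of 1.24, and with library totals 11 were higher and none lower. The summed levels nevertheless were alike on the TMM scale, at 1466 to 1571 CPM in cold and 1298 to 1617 CPM in waterlogging. The sum was not computed with library totals, where the larger TMM factors of the cold libraries would raise cold relative to waterlogging. LOC105053654 had 135, 142 and 129 CPM in cold, 42.6, 47.2 and 38.7 CPM in waterlogging and 37.3, 42.8 and 35.9 CPM in control (log2 fold change 1.66, SE 0.09, adjusted p = 8.30e-09). LOC105043119 had 56.3, 67.4 and 54.7 CPM in cold, 18.8, 15.6 and 18.8 CPM in waterlogging and 14.04, 17.2 and 14.6 CPM in control (log2 fold change 1.75). The member lower in cold was LOC105055994, with 152, 163 and 162 CPM in cold, 490.2, 369 and 272 CPM in waterlogging and 173, 200.2 and 195 CPM in control (log2 fold change -1.25, SE 0.18, adjusted p = 2.73e-05), so cold lay just below control and waterlogging above both.

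Of the 4 genes listed for response to cold, 3 were DEGs higher in cold than in waterlogging. The list comes from the study's drought DEGs. Against control, 2 of the 4 were DEGs higher in cold and 1 was lower, while all 4 were DEGs lower in waterlogging. LOC105041362 had 11.9, 15.8 and 10.97 CPM in cold, 0.533, 0.186 and 0.306 CPM in waterlogging and 1.31, 0.823 and 0.81 CPM in control (log2 fold change 5.22, SE 0.47, adjusted p = 4.39e-07). LOC105048693 had 18.6, 20.9 and 18.6 CPM in cold, 1.53, 1.18 and 0.536 CPM in waterlogging and 7.04, 3.5 and 3.09 CPM in control (log2 fold change 4.13, SE 0.39, adjusted p = 6.06e-07). In both genes control lay between the treatments, and the waterlogging libraries lay below every control library. LOC105054116 had 9.92, 5.55 and 9.13 CPM in cold, 3.86, 2.42 and 2.99 CPM in waterlogging and 10.2, 7.71 and 10.1 CPM in control (log2 fold change 1.41, SE 0.29, adjusted p = 8.51e-04), where cold overlapped control and waterlogging lay below both. The remaining gene, LOC105043427, had 7.33, 10.6 and 8.04 CPM in cold, 9.92, 5.9 and 2.37 CPM in waterlogging and 12.2, 17.3 and 23.6 CPM in control (log2 fold change 0.505, SE 0.40, adjusted p = 0.3), and its treatments overlapped. Without waterlogging replicate 1 it was a DEG higher in cold, with a log2 fold change of 1.04 (adjusted p = 0.042).

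**Figure D4:**
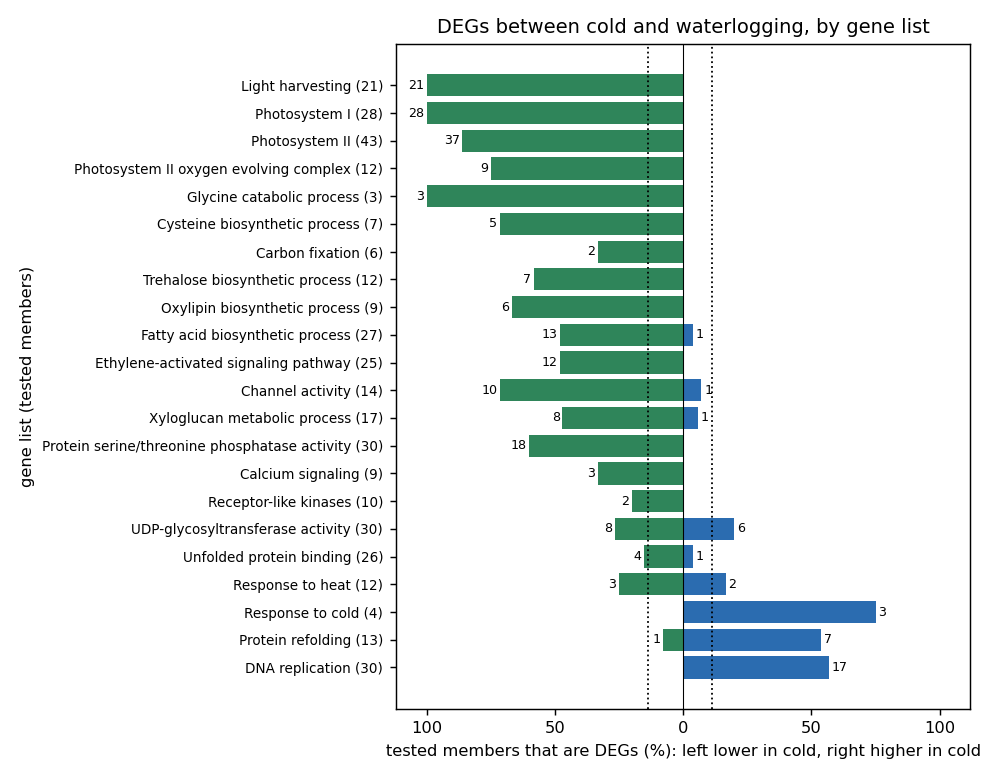
Bars give the percentage of the tested members of each list that were DEGs lower in cold (green, to the left) and higher in cold (blue, to the right), with the number of genes at the bar and the number tested after the name. Dotted lines mark the shares over all tested genes, 13.6% lower and 11.2% higher. Among the lists drawn, light harvesting, photosystem I and glycine catabolism reach 100% on the left, and DNA replication, protein refolding and response to cold reach to the right.

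Of 7 tested genes listed for carbohydrate transmembrane transport, 1 was higher in cold and 2 were lower (median log2 fold change 0.32), and with library totals 4 were higher and 1 lower. Of 12 tested genes of trehalose biosynthesis, a sugar whose phosphorylated precursor is a signal of sucrose supply, 7 were lower in cold and none was higher. LOC105039584 had 18.8, 17.5 and 13.04 CPM in cold, 127, 208 and 182 CPM in waterlogging and 48.1, 47.6 and 62.2 CPM in control (log2 fold change -3.39, SE 0.31, adjusted p = 4.80e-07). LOC105053174 had 14.7, 16.3 and 13.04 CPM in cold, 60.1, 73.8 and 52.9 CPM in waterlogging and 157, 146 and 154 CPM in control (log2 fold change -2.08, SE 0.198, adjusted p = 7.05e-07), so both treatments lay below control and cold lay lowest. LOC105058402 had 3.46, 3.33 and 4.92 CPM in cold, 43.2, 28.4 and 14.2 CPM in waterlogging and 2.47, 3.65 and 4.41 CPM in control (log2 fold change -2.87), where cold overlapped control and waterlogging was above. The sums over the 12 genes were 133 to 153 CPM in cold and 390 to 479 CPM in waterlogging.

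Of 17 tested genes listed for xyloglucan metabolism, whose products cut and rejoin wall polymers, 8 were lower in cold and 1 was higher, LOC105033285, a call lost without cold replicate 3 or waterlogging replicate 1 or 2 (adjusted p = 0.084 to 0.092). LOC105043948 had 42.0, 25.7 and 30.7 CPM in cold, 157, 169 and 130.3 CPM in waterlogging and 52.4, 58.2 and 66.6 CPM in control (log2 fold change -2.21, SE 0.24, adjusted p = 2.32e-06). LOC105049188 had 6.56, 1.07 and 4.74 CPM in cold, 26.8, 37.5 and 55.2 CPM in waterlogging and 1.56, 0.566 and 0.608 CPM in control (log2 fold change -3.26, SE 0.498, adjusted p = 5.83e-05), so cold overlapped control at a low level and waterlogging lay above both. It is the first of 5 listed genes that stand next to each other on chromosome 7 of assembly EG11, and 3 of the 5 were DEGs lower in cold. Neighbouring copies can share reads, so a value of a single copy is uncertain.

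Of 14 genes listed for channel activity, 10 were lower in cold and 1, LOC105043497, was higher, a call lost without cold replicate 3 or waterlogging replicate 2 or 3 (adjusted p = 0.064 to 0.071). LOC105055645 had 5.73, 8.84 and 5.37 CPM in cold, 144, 112.2 and 133 CPM in waterlogging and 28.6, 38.01 and 45.5 CPM in control (log2 fold change -4.29, SE 0.298, adjusted p = 4.63e-08). LOC105059047 had 19.5, 26.5 and 23.7 CPM in cold, 289, 324 and 276 CPM in waterlogging and 64.5, 103 and 47.1 CPM in control (log2 fold change -3.67). In both genes cold lay below every control library and waterlogging above every one.

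Of 7 tested genes listed for auxin transport from the endoplasmic reticulum to the cytosol, 3 were higher in cold and 1 was lower (median log2 fold change 0.89), and with library totals 5 were higher and 1 lower. Of 25 tested genes of the ethylene-activated signaling pathway, 12 were lower in cold and none was higher, while with library totals 7 were lower and 2 higher. In background, ethylene gathers in flooded tissue because it diffuses slowly through water, and whether this bears on the leaf values was not tested. LOC105056677 had 66.7, 69.1 and 85.8 CPM in cold, 597, 454 and 409.9 CPM in waterlogging and 452, 427 and 425 CPM in control (log2 fold change -2.72, SE 0.19, adjusted p = 5.44e-08), so waterlogging lay around control and cold was below both. LOC105045154 had 19.99, 8.65 and 14.9 CPM in cold, 236, 155 and 195 CPM in waterlogging and 18.8, 12.1 and 42.8 CPM in control (log2 fold change -3.75, SE 0.44, adjusted p = 5.00e-06), where cold overlapped control and waterlogging was above both.

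Of 9 tested genes of oxylipin biosynthesis, which makes lipid-derived signals such as jasmonate, 6 were lower in cold and none was higher, while with library totals 3 were lower and 1 higher. LOC105041807, also listed for fatty acid biosynthesis, had 11.9, 13.96 and 9.66 CPM in cold, 219.7, 182 and 231 CPM in waterlogging and 13.6, 13.6 and 14.2 CPM in control (log2 fold change -4.16, SE 0.29, adjusted p = 4.40e-08). LOC105039460 had 195, 324 and 366 CPM in cold, 212, 483 and 4731 CPM in waterlogging and 3206, 5089.6 and 1427 CPM in control (log2 fold change -2.62, SE 0.90, adjusted p = 0.0223), and its treatments overlapped, since waterlogging replicate 1 lay within the range of cold, while waterlogging replicate 3 stood far above the other two. Without waterlogging replicate 3 its log2 fold change was -0.24 (adjusted p = 0.77), and without cold replicate 1 or 2 the adjusted p was 0.078 or 0.056. The summed oxylipin level was 420 to 634 CPM in cold and 919, 1227 and 6223 CPM in waterlogging, with replicate 3 again the high one.

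Of 27 fatty acid biosynthesis genes 13 were lower in cold and 1 was higher, and with library totals 6 were lower and 5 higher. LOC105047853 had 179, 104 and 74.5 CPM in cold, 992, 967 and 981 CPM in waterlogging and 58.9, 57.2 and 41.6 CPM in control (log2 fold change -3.04, SE 0.304, adjusted p = 1.12e-06). Of 7 flavonoid genes 1 was lower in cold, and the sums were 2885, 1742 and 2483 CPM in cold and 730, 1653 and 7983 CPM in waterlogging. Without waterlogging replicate 1 the number lower in cold was 4, and without waterlogging replicate 3 it was 0 with 1 gene higher.

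Of 36 tested genes listed for phosphoprotein phosphatase activity, 5 were higher in cold and 15 lower, and with library totals 10 were higher and 11 lower. Of 30 tested genes listed for protein serine/threonine phosphatase activity, 18 were lower in cold and none was higher, while with library totals 12 were lower and 3 higher. LOC105044577, described as probable protein phosphatase 2C 32, had 55.0, 24.6 and 26.5 CPM in cold, 183, 159 and 114 CPM in waterlogging and 2.97, 2.31 and 5.62 CPM in control (log2 fold change -2.10, SE 0.39, adjusted p = 3.67e-04). LOC105057113, with the same description, had 7.84, 4.05 and 3.53 CPM in cold, 16.5, 26.1 and 24.4 CPM in waterlogging and 0.252, 0.566 and 0.506 CPM in control (log2 fold change -2.12). Both treatments lay above control in these 2 genes, and waterlogging lay higher than cold.

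Mitogen-activated protein kinase 5 (LOC105044664), a kinase at the end of a phosphorylation cascade, had 26.8, 22.8 and 16.8 CPM in cold, 478, 342 and 342 CPM in waterlogging and 56.8, 44.9 and 39.4 CPM in control. Its difference between the treatments was log2 fold change -4.13, SE 0.305, adjusted p = 7.71e-08, and control lay between them without overlap. The receptor-like kinase At2g16250 homolog LOC105060930, a membrane kinase with leucine-rich repeats, had 11.7, 7.42 and 6.99 CPM in cold, 126, 98.0 and 163 CPM in waterlogging and 34.0, 22.9 and 27.9 CPM in control (log2 fold change -3.89, SE 0.298, adjusted p = 1.01e-07), in the same order. Of 10 tested receptor-like kinases described in the study, 2 were lower in cold and none was higher, and the median log2 fold change was -0.01, with 1 lower in cold when any 1 of cold replicates 1 to 3 or waterlogging replicates 2 and 3 was left out, and with library totals 1 was lower and 2 higher.

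The inorganic pyrophosphatase 2-like gene LOC105047312 had 29.0, 41.5 and 26.6 CPM in cold, 223, 149.7 and 185 CPM in waterlogging and 3.32, 4.78 and 6.28 CPM in control (log2 fold change -2.52, SE 0.32, adjusted p = 8.95e-06). Another gene of that description, LOC105042868, had 3.54, 3.73 and 4.999 CPM in cold, 33.2, 36.6 and 21.4 CPM in waterlogging and 0.503, 1.59 and 1.32 CPM in control (log2 fold change -2.89). Pyrophosphatases split the pyrophosphate that biosynthesis releases, and both genes were above control in both treatments. The purple acid phosphatase 20 gene LOC105033875 went the other way, with 35.5, 52.5 and 24.2 CPM in cold, 14.9, 12.7 and 13.7 CPM in waterlogging and 9.11, 5.45 and 4.51 CPM in control (log2 fold change 1.44, SE 0.29, adjusted p = 7.03e-04).

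Of 9 tested calcium signaling genes, 3 were lower in cold and none was higher, but with library totals 1 was lower and 4 were higher, so the balance of this group turned with the scaling, and 1 was lower without cold replicate 2 or without waterlogging replicate 2. The cation/calcium exchanger LOC105035915 had 3.79, 2.74 and 2.89 CPM in cold, 8.39, 14.5 and 11.2 CPM in waterlogging and 1.56, 0.874 and 1.57 CPM in control (log2 fold change -1.85, SE 0.27, adjusted p = 3.36e-05). LOC105057333, calmodulin-like protein 5, a calcium sensor, had 152, 135 and 149.96 CPM in cold, 121, 118 and 107 CPM in waterlogging and 37.6, 18.2 and 34.8 CPM in control (log2 fold change 0.34, SE 0.23, adjusted p = 0.23), and both treatments lay above control.

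The abscisic acid receptor PYL4-like gene LOC105044738 had 0.511, 0.793 and 1.17 CPM in cold, 2.93, 2.86 and 2.37 CPM in waterlogging and 12.6, 12.2 and 14.03 CPM in control (log2 fold change -1.72, SE 0.351, adjusted p = 7.29e-04), so both treatments lay below control and cold was the lowest. Of the inositol-3-phosphate synthase genes, which make the first product of inositol synthesis, LOC105048608 was lower in cold, with 282, 329 and 311 CPM in cold, 583, 869.5 and 886 CPM in waterlogging and 61.7, 122 and 101 CPM in control (log2 fold change -1.34, SE 0.26, adjusted p = 4.26e-04), and at -0.65 with library totals it was no DEG. LOC105041643 was not a DEG, with 101, 122 and 125 CPM in cold, 12.9, 297 and 398 CPM in waterlogging and 7.8, 18.8 and 13.01 CPM in control (log2 fold change -1.02, SE 0.76, adjusted p = 0.27). Waterlogging replicate 1 lay below the cold libraries in this gene and the other waterlogging replicates above them, and without that library the gene was a DEG lower in cold, with a log2 fold change of -1.58 (adjusted p = 0.013).

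Genes that the study describes as unique to cold were mostly near the floor in waterlogging. Of 10 such genes 7 passed the filter on low counts. They were chosen on these libraries for being raised in cold and can pass the filter through the cold libraries alone, so their values are a description and no test is given. The transcriptional adapter ADA2-like gene LOC105032798, whose family works with histone acetyltransferases, had 2.95, 3.13 and 4.06 CPM in cold, 0.133, 0.497 and 0.153 CPM in waterlogging and 0.0503, 0.154 and 0 CPM in control (log2 fold change 3.63). The lysine-specific demethylase JMJ25-like gene LOC105037670 had 2.74, 1.55 and 2.33 CPM in cold, 0.866, 0.124 and 0.0766 CPM in waterlogging and 0.0503, 0.103 and 0 CPM in control (log2 fold change 2.60). The gene described as phosphoribulokinase, LOC105061178, stayed below 1 CPM in every library, with 0.875, 0.635 and 0.564 CPM in cold, 0.133, 0.0621 and 0 CPM in waterlogging and 0, 0 and 0.0506 CPM in control, or 55 reads over the cold libraries and 3 over the waterlogging libraries.

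Of 10 genes described as unique to waterlogging 7 passed the filter. They were chosen in the same way for waterlogging, and their values too are a description without a test. The protein TIFY 5A-like gene LOC105059530, of a family that includes repressors of jasmonate responses, had 0.146, 0.436 and 0.15 CPM in cold, 4.4, 1.8 and 8.89 CPM in waterlogging and 0.403, 0.669 and 0.101 CPM in control (log2 fold change -4.34). The nicotianamine synthase 3 gene LOC105045032, whose product chelates iron and other metals, had 0.182, 0.278 and 0.413 CPM in cold, 4.86, 4.596 and 1.3 CPM in waterlogging and 0.101, 0.206 and 0 CPM in control (log2 fold change -3.60). The vacuolar membrane proton pump LOC105034637, driven by pyrophosphate, had 0.0729, 6.35 and 0.226 CPM in cold, 30.2, 26.2 and 15.9 CPM in waterlogging and 0.151, 0.309 and 0.456 CPM in control (log2 fold change -3.45). In this gene cold replicate 2 stood apart from the other cold libraries.

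The same library stood apart in 2 uncharacterized genes of that table. LOC105032992 had 0, 10.6 and 0 CPM in cold, 13.7, 11.1 and 14.4 CPM in waterlogging and 0.101, 0 and 0 CPM in control (log2 fold change -1.90). LOC105034244 had 0.693, 22.8 and 0.639 CPM in cold, 23.5, 18.8 and 14.9 CPM in waterlogging and 0.604, 0.669 and 0.608 CPM in control (log2 fold change -1.25). Cold replicate 2 was close to the level of the waterlogging libraries in both genes, while the other cold libraries were at the level of control. Without cold replicate 2 the log2 fold change was -4.83 for LOC105034244 and -7.28 for LOC105034637, and none is given for LOC105032992, since no read was counted in the remaining cold libraries.

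The largest differences were found in genes without a description in the sources used here. By size among genes with a treatment mean of at least 5 CPM and no overlap of the treatments, the first higher in cold was LOC105045975, with 17.1, 16.8 and 9.92 CPM in cold, 0, 0 and 0.23 CPM in waterlogging and 0.151, 0.154 and 0 CPM in control. Only 3 reads were counted over the 3 waterlogging libraries, all in 1 library, against 1158 in cold. LOC105057006 had 151, 122 and 121 CPM in cold, 2.53, 2.42 and 4.14 CPM in waterlogging and 4.63, 6.22 and 8.1 CPM in control (log2 fold change 5.45, SE 0.40, adjusted p = 7.72e-08). LOC105036553 had 93.7, 126 and 115 CPM in cold, 4.4, 1.74 and 3.52 CPM in waterlogging and 64.4, 53.1 and 48.2 CPM in control (log2 fold change 5.12, SE 0.29, adjusted p = 1.00e-08). The latter was high in control as well, and waterlogging was the group that stood low.

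Lower in cold, the first was LOC105033878, with 0.401, 0.0397 and 0.413 CPM in cold, 41.4, 29.9 and 62.3 CPM in waterlogging and 2.42, 2.47 and 1.47 CPM in control (log2 fold change -7.23, SE 0.51, adjusted p = 5.54e-08). LOC105054150 had 3.03, 0.357 and 1.28 CPM in cold, 93.5, 102 and 136 CPM in waterlogging and 1.61, 0.514 and 1.37 CPM in control (log2 fold change -6.13, SE 0.57, adjusted p = 6.00e-07). LOC105042235, a gene of NCBI biotype misc_RNA, had 1.6, 1.59 and 1.32 CPM in cold, 90.1, 76.4 and 60.8 CPM in waterlogging and 22.4, 18.4 and 30.1 CPM in control (log2 fold change -5.65, SE 0.26, adjusted p = 1.97e-09). LOC105059619 had 0.219, 0.159 and 0.15 CPM in cold, 12.8, 16.5 and 12.49 CPM in waterlogging and 20.7, 17.7 and 32.1 CPM in control (log2 fold change -6.25), so control lay above waterlogging and cold was the group that stood low.

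By the smallest p among genes of the same kind, LOC105053088 was first, with 11.1, 9.32 and 7.93 CPM in cold, 208, 246 and 208 CPM in waterlogging and 97.1, 92.7 and 101 CPM in control (log2 fold change -4.54, SE 0.15, adjusted p = 1.84e-10). LOC105057716 had 44.9, 50.9 and 46.9 CPM in cold, 7.39, 6.83 and 7.28 CPM in waterlogging and 8.001, 10.03 and 8.35 CPM in control (log2 fold change 2.73, SE 0.11, adjusted p = 1.38e-09). The replicates of each group lay within a narrow range in these genes.

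By abundance among the DEGs higher in cold, LOC105055554 was first, with 1935, 2033 and 1591 CPM in cold, 619.7, 930.4 and 714 CPM in waterlogging and 99.8, 146 and 107 CPM in control (log2 fold change 1.30, SE 0.198, adjusted p = 5.83e-05). LOC105046082 followed, with 1477, 1631 and 1167 CPM in cold, 369, 491 and 495 CPM in waterlogging and 126, 90.001 and 161 CPM in control (log2 fold change 1.66, SE 0.26, adjusted p = 6.35e-05). Both genes were above control in both treatments and highest in cold. LOC105046370, lower in cold, had the abundance of the leading light-harvesting genes and is in none of the lists, with 5274, 5719 and 6352 CPM in cold, 37896, 26363 and 19789 CPM in waterlogging and 11247, 12406 and 13153 CPM in control (log2 fold change -2.28, SE 0.26, adjusted p = 3.98e-06).

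**Figure D5:**
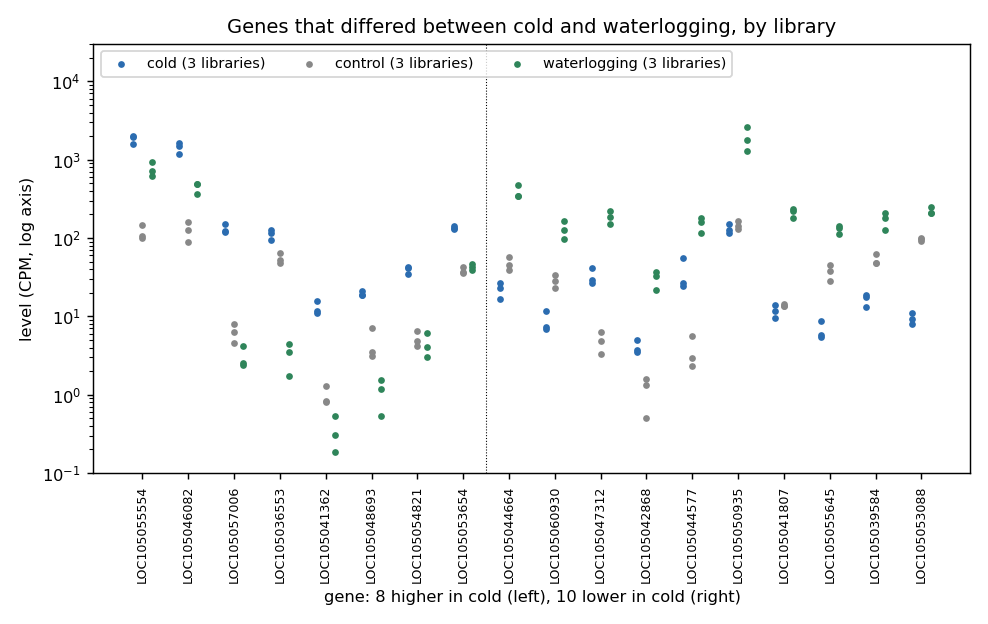
Points give the level in each library (CPM, log axis) of 8 genes that were DEGs higher in cold, left of the dotted line, and 10 that were DEGs lower in cold, right of it, in cold (blue), control (grey) and waterlogging (green). In each gene the 3 cold libraries and the 3 waterlogging libraries do not overlap.

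Other lists were mixed. Of 30 tested UDP-glycosyltransferase genes 6 were higher and 8 lower in cold, and with library totals 11 were higher and 5 lower. Of 12 genes listed for response to heat 2 were higher and 3 lower, and with library totals 3 were higher and 1 lower. LOC105042707 had 186, 139.9 and 107 CPM in cold, 49.8, 61.1 and 57.4 CPM in waterlogging and 12.2, 14.7 and 10.9 CPM in control (log2 fold change 1.36, SE 0.199, adjusted p = 3.75e-05), and LOC105053974 had 324, 346 and 259 CPM in cold, 1832, 1086 and 1213 CPM in waterlogging and 2055, 2860.3 and 2386 CPM in control (log2 fold change -2.15, SE 0.201, adjusted p = 6.00e-07). Of 26 genes listed for unfolded protein binding 1 was higher and 4 were lower, where library totals gave 7 and 3.

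Relative to control, the DEGs did not all sit on opposite sides. Among the 2673 DEGs higher in cold, the control mean lay between the treatment means in 1741 genes (65.1%), above both in 205 and below both in 727. Among the 3229 DEGs lower in cold, it lay between them in 1867 genes (57.8%), above both in 662 and below both in 700. Over all tested genes it lay between the treatments in 34.9%. DEGs are at least 2-fold apart by definition, which leaves more room for a control mean in between. The difference from all tested genes is therefore no result about the DEGs. Control was nearer to waterlogging than to cold in 72.4% of the DEGs higher in cold and in 47.7% of those lower in cold, beside 55.4% of all tested genes. Positions against control, here and for single genes above, are on the TMM scale and were not computed under another scaling.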

How the data were processed

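RNA of oil palm leaves was sequenced in 18 libraries, of which the cold, waterlogging and control libraries are reported here. Groups were taken from the sample titles. The authors removed low-quality reads, mapped the remaining reads to an oil palm reference genome held at NCBI with TopHat2 and counted reads per gene with HTSeq. The deposited counts are whole numbers and are not normalized, and the deposited FPKM values are scaled by the authors for gene length and library total. The sources used here name the genome project and neither its assembly version nor the strand setting of the counting, so overlapping genes and near-identical copies cannot be told apart.

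The main test was the quasi-likelihood test of edgeR 4.0.16 in R 4.3.3 with TMM scaling, after filterByExpr (minimum count 10, minimum total 15), fitted on all 18 libraries with 6 groups so that the groups share 1 estimate of the spread. P-values were adjusted by Benjamini-Hochberg over 23830 of 30606 genes, and DEGs have an adjusted p below 0.05 and at least a 2-fold change. The SE is the log2 fold change divided by the square root of the F statistic. The fit was run on simulated counts with few changed genes, as many raised as lowered. That setting differs from these data, so it cannot show how the scaling acts here. Intervals from counting alone were not computed, and depth was 14839345 to 20182669 counts per library in cold and waterlogging.

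Alternatives were DESeq2 1.42.0, its size factors, library totals, no count filter, the 6 libraries alone, a replicate block, leaving out each library, a test against 2-fold (glmTreat), the adjusted p alone and limma 3.58.1 on log2(FPKM + 1) or log2(FPKM + 0.1). Totals without the light-harvesting and photosystem genes were added after seeing the data. Gene lists and descriptions come from the tables of the paper, which the study selected on these libraries, and the members and lists were chosen with earlier results of these data known. Named genes are, per direction, the 12 DEGs with the largest change and the 6 with the smallest p among those with at least 5 CPM in a treatment and no overlap, the 5 most abundant DEGs, the described stress-unique and signaling genes, and in each list the 4 most abundant members and the 2 DEGs with the largest change, of which a part is printed. Genes outside this rule (LOC105051384, LOC105058402, LOC105058920, LOC105041013, LOC105032994, LOC105033285, LOC105034434, LOC105053065, LOC105058244, LOC105050459 and those in the closing observations) were chosen after their values were seen. Gene order was read from NCBI assembly EG11, which matched 25941 of 29750 numbered genes, and no coordinates are given since no source used here names the assembly version behind the counts. What the unnumbered gene models and genes without a description encode is not reported here.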

Additional observations from a re-analysis of the deposited data

How the results depend on the processing

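The fit with DESeq2 size factors, DESeq2 itself, no count filter, the 6 libraries alone and the fits without 1 library kept the numbers of DEGs within 1.5 times. Over the fits without 1 cold, waterlogging or control library the total was 5566 to 6185, with 2442 to 2911 higher and 3103 to 3274 lower in cold. Library totals gave 9462 DEGs, 8055 higher and 1407 lower, and totals without the photosystem genes gave 6486 higher and 1649 lower. The test against 2-fold gave 2789 DEGs, 1047 higher and 1742 lower, and the adjusted p alone gave 12699, 6146 higher and 6553 lower. Limma on FPKM, which is scaled to library totals, gave 5220 higher and 1064 lower with 1 added, and 9392 in all, 8037 higher and 1355 lower, with 0.1 added. DNA replication members higher in cold numbered 28 with library totals, 26 with totals without the photosystem genes, 27 with limma at 0.1 and 9 against 2-fold. Protein refolding members higher in cold numbered 11 with library totals, with the adjusted p alone and with limma, and 4 against 2-fold. Of the DEGs of the main test, 47.3% kept their call in the test against 2-fold and 99.3% with DESeq2. With limma 52.3% kept it with 1 added and 68.2% with 0.1 added. Apart from the scaling itself, the cause of these changes was not tested.

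Replicate numbers gave no sign of a pairing, since the deviations of same-numbered cold and waterlogging libraries had correlations of -0.12, -0.12 and -0.05. Cold replicates 1, 2 and 3 had correlations of 0.18, 0.18 and 0.17 with waterlogging replicates 3, 1 and 2. The remaining pairs had -0.06, -0.13 and -0.06. Whether any of these libraries share an origin was not tested. With the replicate number as a block there were 5892 DEGs, 2703 higher and 3189 lower in cold, and 5770 of the 5902 DEGs kept their call.

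Of 1640 values of the 82 named genes under the alternatives, 1537 kept their direction and side of the thresholds, 66 lost the call, 31 gained it and 6 changed sign, and 55 genes kept both in every alternative. The sign turned for LOC105051384 with library totals (0.57), totals without the photosystem genes (0.42) and limma (0.52 and 0.59), and for LOC105041643 with limma (0.64 and 0.70), and neither was a DEG to begin with. With 3 libraries in a group an exact permutation test of 1 value cannot go below 0.1, and genes of a few reads, such as those unique to 1 treatment, allow no precise fold.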

Other observations

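Counting genes in which 1 library had at least 5 CPM and stood at least 8-fold (with 0.5 CPM added) above both partners of its group, or lay as far below partners that both had at least 5 CPM, cold replicate 2 was high in 5 genes and low in 11. Waterlogging replicate 1 was low in 70 genes and high in 6, waterlogging replicate 3 was high in 13 and low in 3, and cold replicates 1 and 3 were high in 3 and 0 genes and low in 2 and 4.

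The genes LOC105032992, LOC105034244 and LOC105034637 described above, high in cold replicate 2 and in all waterlogging libraries, are placed on chromosome 1 of EG11, with 2 table genes between the first pair and 20 between LOC105034637 and LOC105032992. On chromosome 6, LOC105047143, LOC105047118 and LOC105036755 stand next to each other. LOC105047118 had 0.704, 0.617 and 223 CPM in the control libraries, 22.7, 0.0397 and 28.7 CPM in cold and 4.8, 0 and 55.0 CPM in waterlogging. LOC105036755 had 0.101, 0.103 and 42.0 CPM in control, 9.23, 0 and 13.3 CPM in cold and 2.2, 0 and 7.12 CPM in waterlogging. LOC105047143 had 0, 0.720 and 81.7 CPM in control, 5.80, 0 and 6.80 CPM in cold and 0.200, 0.0621 and 0 CPM in waterlogging. LOC105047118 and LOC105036755 were over 2 CPM in control replicate 3, cold replicates 1 and 3 and waterlogging replicates 1 and 3 and below 1 CPM in the others, whereas LOC105047143 was below 1 CPM in every waterlogging library. None of the 3 genes was a DEG between cold and waterlogging.

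DEGs lower in cold stood beside each other along the chromosomes more often than their share of all placed genes. Of the genes next to a DEG lower in cold, 18.3% were themselves DEGs lower in cold, beside 13.6% of all 21233 placed genes. For DEGs higher in cold the shares were close, at 12.53% and 11.0%. The longest run was of 7 consecutive tested genes lower in cold on chromosome 1, from LOC105060330 to LOC105039019, with log2 fold changes of -4.76 to -1.08. LOC105060330 fell short of 2-fold without cold replicate 2 (-0.92) or waterlogging replicate 3 (-0.96). Runs of 6 genes were found on chromosome 6 (lower in cold) and on chromosomes 3 and 10 (higher in cold). The run lengths to be expected from these shares were not computed. Neighbouring copies can share reads, and the part of this in the runs was not tested.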
